A study of Mus musculus with 4 samples.

Results

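The 37 genes examined here encode enzymes of nucleotide metabolism. Except for Samhd1, these make purine and pyrimidine nucleotides, recover them by salvage, or turn them into the deoxynucleotides used for DNA. Samhd1, counted here with deoxynucleotide supply, breaks deoxynucleotides down. The genes were chosen by name as a pathway and by no rule on their values, but with earlier results of these data known. All 37 were listed among the 24411 genes of each library. They fall into 13 genes of de novo purine synthesis, 5 of de novo pyrimidine synthesis, 5 of salvage, 10 of deoxynucleotide supply and 4 nucleotide kinases. The libraries are polyadenylated RNA of ICR mouse embryos made by in vitro fertilization, cultured in KSOM and collected at 36 hpi (hours post-insemination), at the late two-cell stage, with 10 embryos pooled in a library. In 2 libraries the embryos had been cultured with 6 µM 10074-G5, a compound that blocks the dimer of MYC with its partner MAX, and in the other 2 with its solvent DMSO. The labels put the start of the culture with 10074-G5 or DMSO at 3 hpi and the design text at 6 hpi. The comparison asks which of these genes had different transcript levels when MYC–MAX pairing was inhibited.

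Nucleotides reach the cell by 2 routes. De novo synthesis builds the purine ring on an activated ribose, phosphoribosyl pyrophosphate (PRPP), and the pyrimidine ring from carbamoyl phosphate and aspartate, whereas salvage attaches ready bases or phosphorylates ready nucleosides. Ribonucleotide reductase then converts ribonucleotides to deoxynucleotides, and separate enzymes make thymidylate. Genes of these pathways are well-known targets of MYC in growing cells. A cleavage-stage embryo replicates its DNA in each cycle while it replaces the RNA stored by the oocyte with its own.

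The SMART-Seq kit used does not mark strand, and each library held from 18206584 to 20718690 estimated fragments. The DMSO replicates differed by more than 2-fold for 42.2% of the 13549 tested genes, against 20.6% for the inhibitor-treated replicates, and DMSO replicate 1 lay farther from the mean of the treated libraries than DMSO replicate 2 for 77.2% of the genes. The log2FC values of the genes and classes are therefore given with and without DMSO replicate 1. Of 25 transcripts known as stored by the oocyte, 25 were tested, and their median log2 CPM (counts scaled to library size, as the distance from the mean of the gene across all 4) was -1.08 in DMSO replicate 1, 0.02 in DMSO replicate 2 and 0.36 and 0.46 in the treated replicates. The same value for 16 tested genes of minor zygotic genome activation (ZGA) was -1.07, 0.20, 0.54 and 0.61. The part of these differences between libraries in the results on nucleotide genes was not tested. Of 18 markers of the cumulus and granulosa cells that surround the oocyte, 13 were under 1 FPKM (fragments scaled to transcript length and library size) in every library. Foxl2, Amh, Inha, Inhba, Lum and Ptx3 were at 0. Tnfaip6 had 0 and 3.95 FPKM with DMSO and 3.38 and 1.45 FPKM with the inhibitor. Cyp19a1 had 0.57 and 0.66 FPKM with DMSO and 2.94 and 0.65 FPKM with the inhibitor. Vim was above 0 only in inhibitor-treated replicate 2, at 1.33 FPKM. The summed level of these 18 markers was 49.4 and 24.5 FPKM in DMSO-treated and 15.7 and 15.04 FPKM in inhibitor-treated embryos, led by Gja1 and Amhr2 with DMSO, and its part in the results was not tested. Among 10 sperm and spermatid markers, Prm1, Tnp2, Gapdhs and Spata18 were at 0 and the summed level was 15.1 and 43.7 FPKM with DMSO and 78.8 and 52.5 FPKM with the inhibitor. Most of it came from Odf2 (12.4 and 38.5 FPKM with DMSO, 59.8 and 42.8 FPKM with the inhibitor), and Prm2 had 1.56 and 4.44 FPKM with DMSO and 15.8 and 5.88 FPKM with the inhibitor, both higher in both treated libraries. Their part in the results was not tested. For 8 blood and leukocyte markers it was 1.95 and 21.3 FPKM with DMSO and 10.8 and 14.3 FPKM with the inhibitor.

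Most of the nucleotide genes had lower transcript levels in inhibitor-treated embryos. Of the 36 genes that passed the filter on low counts, 29 had a negative and 7 a positive log2FC (log2 of the ratio of inhibitor-treated to DMSO-treated embryos). The median log2FC was -0.88, against 0.04 over all tested genes, of which 48.5% were lower. For 23 genes (63.9%) both treated libraries lay below both DMSO libraries, where 28.3% of all tested genes did so. For 4 genes (11.1%), Dut, Tk2, Rrm2b and Samhd1, both treated libraries lay above, against 28.9% of all tested genes. In a pool of whole embryos, fewer embryos at a given step of development and less RNA in each embryo cannot be told apart.

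None of the nucleotide genes passed an adjusted p of 0.05 in edgeR, which called 0% of all tested genes at that threshold with |log2FC| above 1. The smallest adjusted p of any of them was 0.333. Before adjustment, 15 nucleotide genes (41.7%) were lower with a p under 0.05, where 10.1% of all tested genes were, and 1 gene, Dut, was higher, where 4.72% of all tested genes were. DESeq2 with the transcript lengths as offsets, the tool closest to that of the study, called 8 of the 33 genes to which it gave an adjusted p (24.2%) as down-regulated and 0 as up-regulated, against 5.38% and 1.04% of all genes with such a p. These 8 were Ppat, Paics, Impdh1, Impdh2, Umps, Hprt, Tk1 and Nme1. Without DMSO replicate 1 the median log2FC of the 36 genes was -0.47, 25 were lower, and edgeR again called 0. Without DMSO replicate 2, where the lone DMSO library is taken to vary like the treated pair, edgeR called 26 of them, 22 lower and 4 higher, and 2419 lower and 2349 higher of all 14669 genes tested then. With 2 libraries in each group, the smallest p that exact permutation can reach for a single gene is 0.333 (two-sided), and the p-values measure only the spread between these libraries.

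**Figure D1:**
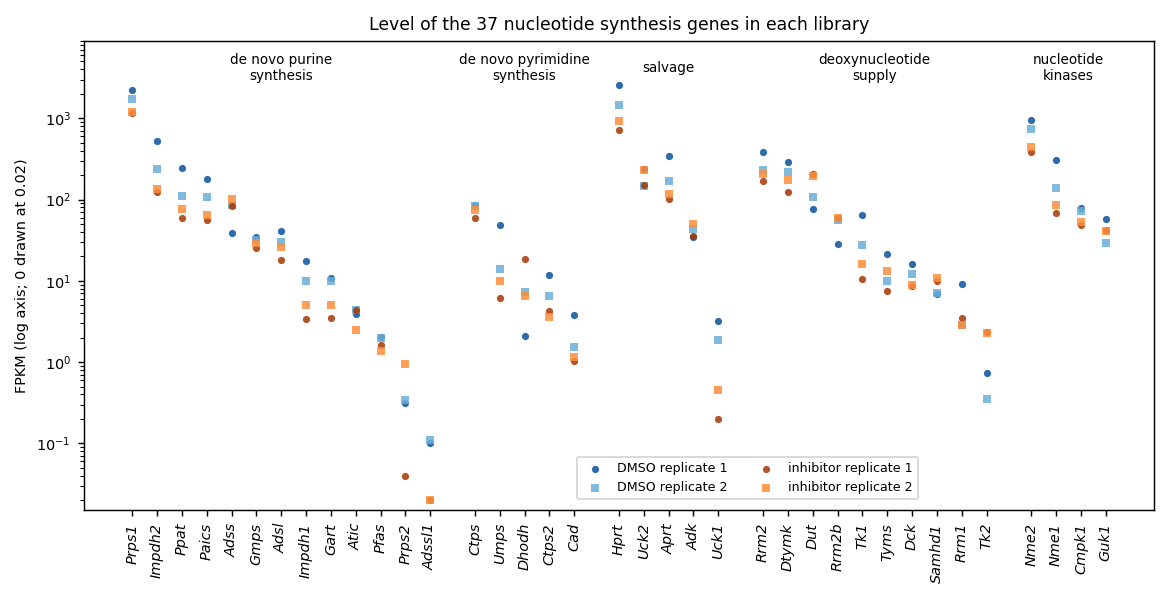
Level in FPKM (log axis, values of 0 drawn at 0.02) of the 37 nucleotide synthesis genes, ordered within each class by their mean, with 1 point for each of the 2 DMSO and 2 inhibitor-treated libraries. Prps1 and Hprt have the highest means while Prps2 and Adssl1 stay under 1 FPKM, and DMSO replicate 1 is the top point of many columns, among them Hprt, Impdh2 and Umps.

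The levels of the enzymes spanned more than 3 powers of 10. Prps1 and Hprt, which make and use PRPP, held together from 48.8% to 53.7% of the summed FPKM of the 37 genes in each library. Prps1 ranked at position 64 and Hprt at position 75 of all 24411 genes by mean FPKM, and 8 of the 37 genes were above 100 FPKM in every library. At the other end, Prps2 and Adssl1 were under 1 FPKM in every library. The summed FPKM of the 37 genes was 9034 and 5919 in DMSO replicates 1 and 2 and 3787 and 4402 in inhibitor-treated replicates 1 and 2. Both treated sums lay below both DMSO sums, and the DMSO replicates lay farther apart than DMSO replicate 2 did from inhibitor-treated replicate 2.

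MYC–MAX binds the E-box, whose preferred form is CACGTG. This motif reads the same on both strands. It was searched in RefSeq promoter windows of GRCm38.p6, the build called mm10 in the submitters' notes, from 250 bases before to 50 bases after each annotated start. Of the 34 nucleotide genes with a window, 6 (17.6%) held it, against 8.09% of all 27025 genes with a window. Those genes were not limited to the genes tested here, and the share among tested genes was not computed. The 6 were Paics, Atic, Impdh2, Tyms, Dtymk and Nme1. Their log2FC had a median of -1.22, and the median of the 27 tested genes whose windows held no CACGTG was -0.90. Without DMSO replicate 1, an alternative added after seeing the data, these medians were -0.68 and -0.48, and the difference between them was not tested. A match describes the letters of the window and was not tested as a binding site. Those of the genes discussed most below are shown 5′ to 3′ on the strand of the gene, 12 bases to each side, with the motif in capitals.
Impdh2 (chr9:108560314-108560343, + strand, motif 110 bases before the start): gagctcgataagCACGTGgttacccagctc
Paics (chr5:76951087-76951116, + strand, 203 bases before the start): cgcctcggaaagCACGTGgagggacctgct
Nme1 (chr11:93968273-93968302, - strand, 18 bases before the upper start): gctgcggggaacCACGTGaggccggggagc
Nme1 (chr11:93968037-93968066, - strand, 29 bases before the lower start): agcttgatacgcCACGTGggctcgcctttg
Tyms (chr5:30073669-30073698, - strand, 61 bases before the start): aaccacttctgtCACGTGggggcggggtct
Dtymk (chr1:93802065-93802094, - strand, 148 bases before the start): gtctcgaacttcCACGTGaccagagcctgc
Nme1 is the gene with the motif before both of its annotated starts. The stretch of Paics lies within the span of Ppat, which is read from the opposite strand.

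Among the genes of de novo purine synthesis, 10 of 12 tested genes were lower in inhibitor-treated embryos, 9 of them without overlap. Of all tested genes, 48.5% were lower and 28.3% were lower without overlap. The median log2FC of the class was -0.88 (-0.50 without DMSO replicate 1). Prps1, on chromosome X from 140456603 to 140476140, makes PRPP for both purine and pyrimidine synthesis. Its level was 2248 and 1703 FPKM in DMSO-treated and 1160 and 1212 FPKM in inhibitor-treated embryos. The treated libraries lay below both DMSO libraries by a log2FC of -0.90 (standard error 0.41), with an adjusted p of 0.35 in edgeR and 0.145 in DESeq2, and by -0.52 without DMSO replicate 1. Its X-linked paralog Prps2 had 20 and 21 fragments with DMSO and 3 and 63 with the inhibitor, and no direction can be read from these counts.

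Ppat, which catalyses the committed step of purine synthesis, and Paics, a bifunctional enzyme of the middle of the pathway, lie head to head on chromosome 5. Their spans (76913249 to 76951578 and 76951302 to 76967509) overlap by 277 bases at their starts, where fragments cannot be assigned to a gene without strand. Ppat had 248 and 110 FPKM with DMSO and 60.0 and 76.0 FPKM with the inhibitor. Paics had 180 and 108 FPKM with DMSO and 55.7 and 64.7 FPKM with the inhibitor. Both genes showed the same order of libraries, with DMSO replicate 1 highest and the treated libraries lowest. The log2FC was -1.59 for Ppat (standard error 0.52, adjusted p = 0.0351 by DESeq2) and -1.43 for Paics (standard error 0.43, adjusted p = 0.0394 by DESeq2). In edgeR, which gave these log2FC values, both had an adjusted p of 0.333. Without DMSO replicate 1 the log2FC was -0.70 for Ppat and -0.84 for Paics.

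Gart, a trifunctional enzyme of the early steps on chromosome 16, was far lower in level and differed little between the DMSO replicates. It had 10.98 and 10.01 FPKM with DMSO and 3.53 and 4.97 FPKM with the inhibitor. Its log2FC of -1.46 (standard error 0.45) had an adjusted p of 0.333 in edgeR and 0.0622 in DESeq2, and was -1.24 without DMSO replicate 1. Pfas, which acts between the steps of Gart, had 2.01 and 1.99 FPKM with DMSO and 1.62 and 1.35 FPKM with the inhibitor, with a log2FC of -0.58 (-0.43 without DMSO replicate 1). Adsl, which acts both on the way to inosine monophosphate (IMP) and in the branch to AMP, had 40.5 and 30.3 FPKM with DMSO and 18.1 and 25.7 FPKM with the inhibitor, with a log2FC of -0.86 (-0.47 without DMSO replicate 1). Atic, which closes the ring to give IMP, ranged from 2.49 to 4.42 FPKM, with a log2FC of -0.39 (-0.33 without DMSO replicate 1), and its groups overlapped.

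After IMP the pathway branches to GMP and to AMP. Impdh2, on chromosome 9 from 108560436 to 108565577, turns IMP toward GMP. It had 532 and 235 FPKM with DMSO and 124 and 136 FPKM with the inhibitor, and the DMSO libraries lay farther from each other than DMSO replicate 2 from the treated ones. Its log2FC was -1.75 (standard error 0.52, adjusted p = 0.333 in edgeR and 0.0209 in DESeq2), and -0.85 without DMSO replicate 1. Impdh1, the second IMP dehydrogenase, had 17.3 and 9.88 FPKM with DMSO and 3.39 and 5.05 FPKM with the inhibitor, so Impdh2 made up from 96.0% to 97.3% of the summed FPKM of the pair in each library. The log2FC of Impdh1 was -1.87 (standard error 0.54, adjusted p = 0.333 in edgeR and 0.0334 in DESeq2), and -1.23 without DMSO replicate 1. Gmps, which completes GMP, had 34.3 and 32.2 FPKM with DMSO and 25.5 and 29.0 FPKM with the inhibitor, with a log2FC of -0.44 (-0.24 without DMSO replicate 1) and an adjusted p of 0.541 in edgeR. Adss, the first enzyme of the branch to AMP, had 38.3 and 85.5 FPKM with DMSO and 83.9 and 102 FPKM with the inhibitor. DMSO replicate 2 lay between the treated libraries for Adss, and the log2FC was 0.49 (adjusted p = 0.569 in edgeR) and 0.12 without DMSO replicate 1. Its paralog Adssl1, known as the muscle form, had 3 fragments in each DMSO library and 0 in each treated library, no more than the limit of 3 that a count of 0 allows, and was not tested.

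Of the 5 genes of de novo pyrimidine synthesis, 4 were lower in treated embryos, all without overlap, as were 28.3% of all tested genes. The median log2FC of the class was -1.40 (-0.50 without DMSO replicate 1). Cad, a trifunctional enzyme that starts the pathway and a much studied MYC target, was among the low genes, with 3.76 and 1.52 FPKM with DMSO and 1.02 and 1.16 FPKM with the inhibitor. These levels rest on 494 and 190 fragments with DMSO and 143 and 157 with the inhibitor. Its log2FC of -1.49 (standard error 0.63) had an adjusted p of 0.334 in edgeR and 0.132 in DESeq2, and was -0.50 without DMSO replicate 1. Dhodh, the mitochondrial enzyme that makes orotate, was the only gene of the class with a positive log2FC. It had 2.10 and 7.22 FPKM with DMSO and 18.6 and 6.51 FPKM with the inhibitor, so its groups overlapped, with a log2FC of 1.36 and an adjusted p of 0.387 in edgeR. Its log2FC was 0.80 without DMSO replicate 1, 0.43 without inhibitor replicate 1 and 2.31 without DMSO replicate 2, the last with an adjusted p under 0.05 in edgeR.

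Umps, which turns orotate into UMP, lies on chromosome 16 from 33954782 to 33967038. It had 48.9 and 14.2 FPKM with DMSO and 6.18 and 9.84 FPKM with the inhibitor. The treated libraries lay below both DMSO libraries, while DMSO replicate 1 stood apart from the other 3 libraries. The log2FC of -2.19 (standard error 0.67, adjusted p = 0.333 in edgeR and 0.017 in DESeq2) became -0.82 without DMSO replicate 1. Ctps and Ctps2 both turn UTP into CTP. Ctps held from 87.8% to 95.3% of the summed FPKM of this pair, with 85.8 and 83.8 FPKM with DMSO and 59.8 and 73.5 FPKM with the inhibitor, and its log2FC was -0.50 (standard error 0.35, adjusted p = 0.497 in edgeR and 0.418 in DESeq2). X-linked Ctps2 had 11.9 and 6.46 FPKM with DMSO and 4.29 and 3.62 FPKM with the inhibitor, with a log2FC of -1.40 (standard error 0.50, adjusted p = 0.333 in edgeR and 0.0797 in DESeq2). Without DMSO replicate 1 the log2FC was -0.33 for Ctps and -0.71 for Ctps2.

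**Figure D2:**
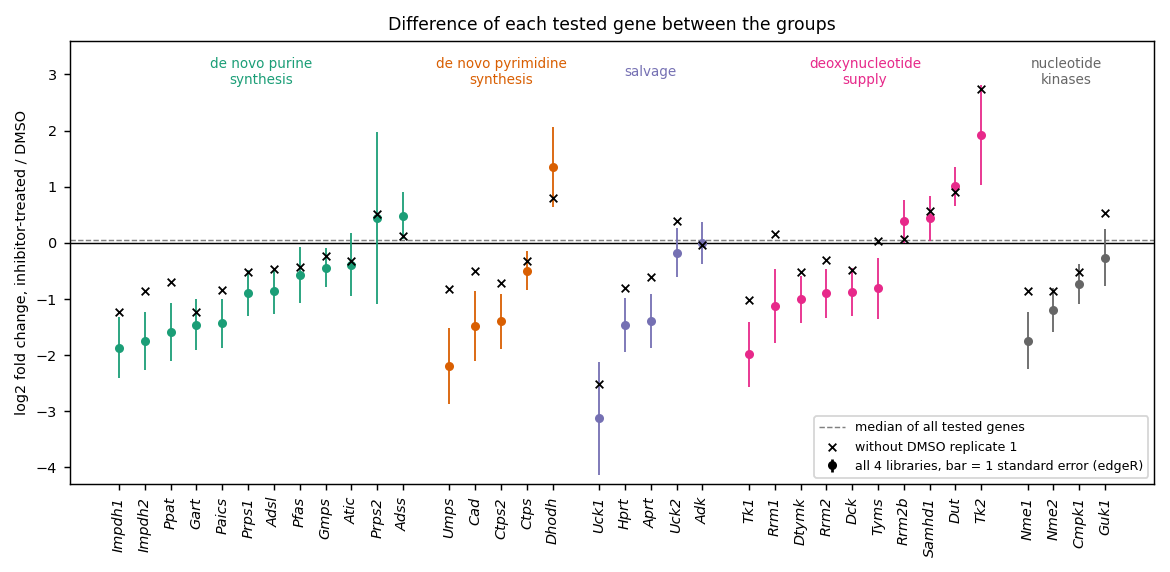
log2FC of the 36 tested genes by class, with points and bars for the edgeR estimate over 4 libraries and its standard error, crosses for the estimate without DMSO replicate 1, and a dashed line at the median of all tested genes (0.04). Most points lie below 0, from -3.13 for Uck1 to 1.92 for Tk2, and most crosses lie closer to 0 than their points.

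In the salvage class, all 5 genes had a negative log2FC, with a median of -1.39 (-0.61 without DMSO replicate 1), but the values fell into separate sizes. Of all tested genes, 48.5% were lower. Adk and Uck2 lay near 0 and changed sign in 7 and 6 of 15 alternatives. Hprt, on chromosome X from 52988078 to 53021660, recovers hypoxanthine and guanine. It had 2601 and 1457 FPKM with DMSO and 724 and 938 FPKM with the inhibitor, a mean of 2029 ± 809 (SD, n = 2) against 831 ± 152 (SD, n = 2). Its log2FC was -1.47 (standard error 0.48, adjusted p = 0.333 in edgeR and 0.0356 in DESeq2), and -0.81 without DMSO replicate 1. Aprt, which recovers adenine, had 343 and 170 FPKM with DMSO and 103 and 118 FPKM with the inhibitor. Its log2FC was -1.39 (standard error 0.48, adjusted p = 0.333 in edgeR and 0.0623 in DESeq2), and -0.61 without DMSO replicate 1. Both enzymes of base salvage use PRPP, and both had treated libraries below both DMSO libraries.

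The enzymes of nucleoside salvage did not share one pattern. Adk, the adenosine kinase, had 34.4 and 43.3 FPKM with DMSO and 35.1 and 49.8 FPKM with the inhibitor, with a log2FC of -0.01 (standard error 0.38, and -0.03 without DMSO replicate 1), and the groups overlapped. Uck2, a uridine-cytidine kinase, had 236 and 147 FPKM with DMSO and 153 and 231 FPKM with the inhibitor. The log2FC of Uck2 was -0.17 with all libraries and 0.38 without DMSO replicate 1, neither distinguishable from the spread between replicates (adjusted p = 0.865 in edgeR with all libraries). Uck1, its paralog, was the minor form (Uck2 held from 98.7% to 99.9% of the summed FPKM of the pair) and had 103 and 57 fragments with DMSO and 7 and 15 with the inhibitor. This is a log2FC of -3.13 (standard error 1.004, adjusted p = 0.333 in edgeR, left without an adjusted p by DESeq2), and -2.51 without DMSO replicate 1. The span of Uck1 overlaps that of Pomt1, and fragments of the overlap cannot be told apart without strand.

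The deoxynucleotide class was the most divided one, with 6 genes lower and 4 higher in treated embryos. Its median log2FC was -0.84 with all libraries and 0.06 without DMSO replicate 1, so that the direction of the class rested on that library. Rrm2, the small subunit of ribonucleotide reductase made in S phase, had 383 and 230 FPKM with DMSO and 168 and 204 FPKM with the inhibitor. Its log2FC was -0.90 (standard error 0.44, adjusted p = 0.365 in edgeR and 0.181 in DESeq2), and -0.30 without DMSO replicate 1. Rrm1, the large subunit that pairs with it, was much lower, with 9.23 and 2.85 FPKM with DMSO and 3.50 and 2.89 FPKM with the inhibitor, and its FPKM was from 0.0124 to 0.0241 of that of Rrm2. Its log2FC was -1.13 with all libraries and 0.16 without DMSO replicate 1. Rrm2b, the alternative small subunit known to be induced by p53, had 28.2 and 56.1 FPKM with DMSO and 58.9 and 59.3 FPKM with the inhibitor, with a log2FC of 0.38 (0.075 without DMSO replicate 1). The share of Rrm2 in the summed FPKM of the small subunits was 93.1% and 80.4% with DMSO and 74.0% and 77.5% with the inhibitor, which is lower in both treated libraries. The distance between the DMSO libraries was larger than that from DMSO replicate 2 to either treated library.

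The thymidylate enzymes differed in direction too. Dut, on chromosome 2 from 125247248 to 125259049, removes dUTP and supplies dUMP for thymidylate. It had 75.5 and 107 FPKM with DMSO and 208 and 193 FPKM with the inhibitor, a mean of 91.1 ± 22.0 (SD, n = 2) against 200.2 ± 10.5 (SD, n = 2). Its log2FC of 1.01 (standard error 0.35) had an adjusted p of 0.333 in edgeR and 0.0886 in DESeq2, and at 0.90 without DMSO replicate 1 it depended little on that library. Tyms, which methylates dUMP, had 21.7 and 10.1 FPKM with DMSO and 7.58 and 13.2 FPKM with the inhibitor, and its log2FC was -0.81 with all libraries and 0.04 without DMSO replicate 1. Dtymk, which phosphorylates dTMP, had 290.0 and 221 FPKM with DMSO and 124 and 173 FPKM with the inhibitor. Its log2FC was -1.003 (standard error 0.42, adjusted p = 0.334 in edgeR and 0.158 in DESeq2), and -0.51 without DMSO replicate 1.

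Of the kinases that recover deoxynucleosides, Tk1 and Tk2 had log2FC values of opposite sign. Tk1, the cytosolic thymidine kinase of dividing cells, lies on chromosome 11 from 117815519 to 117826087. It had 65.1 and 27.3 FPKM with DMSO and 10.6 and 15.98 FPKM with the inhibitor. Its log2FC was -1.99 (standard error 0.58, adjusted p = 0.333 in edgeR and 0.0231 in DESeq2), and -1.02 without DMSO replicate 1. The span of Tk1 overlaps that of Afmid. Tk2, the mitochondrial thymidine kinase, had 29 and 13 fragments with DMSO and 102 and 94 with the inhibitor, a log2FC of 1.92 (standard error 0.89, adjusted p = 0.35 in edgeR), and 2.75 without DMSO replicate 1. Tk1 made up 98.9% and 98.7% of the summed FPKM of the pair with DMSO and 82.0% and 87.6% with the inhibitor, and these shares did not overlap between the groups. Dck, the deoxycytidine kinase, had 16.2 and 12.1 FPKM with DMSO and 8.55 and 8.76 FPKM with the inhibitor, with a log2FC of -0.87 (-0.48 without DMSO replicate 1). Samhd1, which breaks deoxynucleotides down, had 6.94 and 7.05 FPKM with DMSO and 10.03 and 10.8 FPKM with the inhibitor, with a log2FC of 0.43 (0.57 without DMSO replicate 1) and an adjusted p of 0.598 in edgeR.

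All 4 nucleotide kinases had a negative log2FC, with a median of -0.97 (-0.69 without DMSO replicate 1), where 48.5% of all tested genes were lower. Guk1 became positive without DMSO replicate 1. Nme1 and Nme2, which balance nucleoside triphosphates at the expense of ATP, are neighbours on chromosome 11, 2668 bases apart, and are so alike that reads mapping to both may have been lost. Nme2 had 965 and 744 FPKM with DMSO and 383 and 449 FPKM with the inhibitor, and its log2FC was -1.20 (standard error 0.38, adjusted p = 0.333 in edgeR and 0.061 in DESeq2). Nme1 had 308 and 138 FPKM with DMSO and 67.7 and 84.7 FPKM with the inhibitor, and its log2FC was -1.74 (standard error 0.51, adjusted p = 0.333 in edgeR and 0.0242 in DESeq2). Without DMSO replicate 1 both were at -0.86. Nme1 made up 24.2% of the summed FPKM of the pair in DMSO replicate 1 and from 15% to 15.9% in the other 3 libraries. Cmpk1, the UMP-CMP kinase, had 79.1 and 72.5 FPKM with DMSO and 48.3 and 52.9 FPKM with the inhibitor, with a log2FC of -0.73 (-0.52 without DMSO replicate 1). Guk1, the guanylate kinase, had 58.3 and 29.4 FPKM with DMSO and 41.7 and 40.8 FPKM with the inhibitor, with a log2FC of -0.26 (0.52 without DMSO replicate 1), and the groups overlapped.

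Differences between the classes were not tested, and their levels are set side by side. The centred median log2 CPM of the purine class was 0.75 and 0.16 in DMSO replicates 1 and 2 and -0.71 and -0.46 in the treated replicates. For the pyrimidine class it was 1.21 and 0.08 with DMSO and -0.51 and -0.55 with the inhibitor. For salvage it was 1.23 and 0.05 with DMSO and -0.72 and -0.52 with the inhibitor. The nucleotide kinases had 0.79 and 0.13 with DMSO and -0.56 and -0.39 with the inhibitor. In these 4 classes both treated libraries lay below both DMSO libraries. In the deoxynucleotide class DMSO replicate 2, at -0.21, lay between the treated replicates, at -0.34 and -0.12, and DMSO replicate 1 stood alone at 0.82. DMSO replicate 1 lay farther than DMSO replicate 2 from the mean of the treated libraries for 33 of the 36 genes, and for 77.2% of all tested genes. DMSO replicate 1 was also above DMSO replicate 2 for all 23 genes that were lower without overlap. The same share over all tested genes lower without overlap was not computed.

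**Figure D3:**
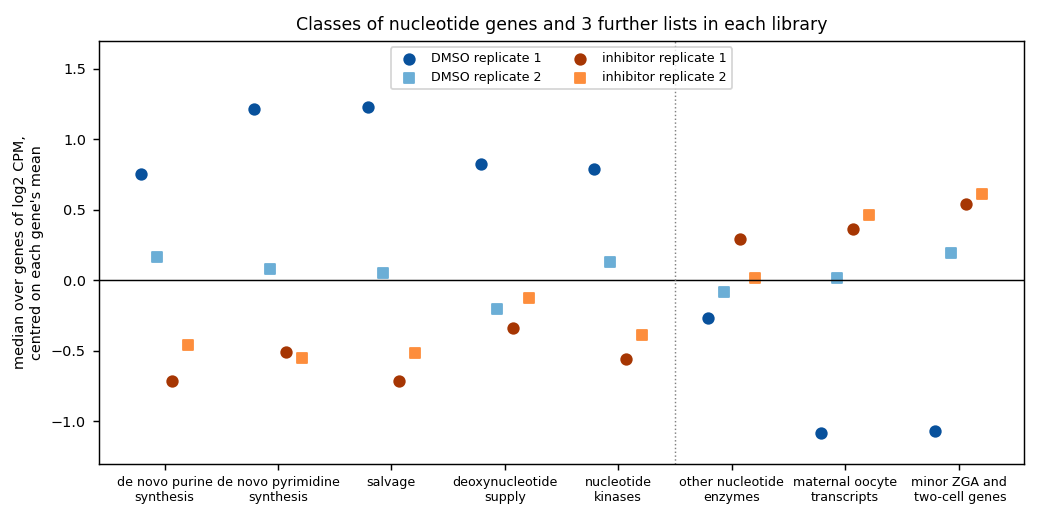
Median log2 CPM over the tested genes of each class, each gene centred on its mean over the 4 libraries, with 1 point for each library, and on the right of the dotted line the same for other nucleotide enzymes, maternal transcripts and minor ZGA genes. DMSO replicate 1 is at the top of the 5 nucleotide classes and at the bottom of the 3 lists on the right.

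Other enzymes of nucleotide metabolism, mainly of breakdown, interconversion and pool cleaning, had more positive than negative log2FC values. Their list, too, was written with earlier results of these data known. It also holds salvage enzymes. Dguok, Uprt, Mtap, Uckl1 and Pnp were at 0.998, 1.61, 0.51, 0.45 and 0.32 (0.69, 2.32, 0.52, -0.16 and 0.19 without DMSO replicate 1). Cda and Tymp, which also act on nucleosides, were at -1.02 and -2.13 (-0.74 and -0.97 without it). How far the contrast with the classes depends on where genes were filed was not tested. Of the 49 listed genes, 43 were tested, 15 had a negative and 28 a positive log2FC, and the median was 0.34 (0.31 without DMSO replicate 1). Both treated libraries lay above both DMSO libraries for 18 genes (41.9%, against 28.9% of all tested genes) and below for 9 (20.9%, against 28.3%). In edgeR 0 passed an adjusted p of 0.05, and 5 in each direction (11.6%) had an unadjusted p under 0.05, near the 10.1% of all tested genes that were lower and above the 4.72% that were higher. DESeq2 called Ak6 and Nt5c3b lower and Nudt5 higher.

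Nt5c, which removes the phosphate of deoxynucleotides, had 280 and 147 fragments with DMSO and 0 in both treated libraries, at least 87-fold lower against a limit of 3 fragments in each treated library, and at least 55.1-fold without DMSO replicate 1. Its span on chromosome 11 overlaps those of Armc7 and Gm11694, to which shared fragments could have been assigned. Ak6, an adenylate kinase of the nucleus, had 481 and 258 FPKM with DMSO and 89.2 and 137 FPKM with the inhibitor, with a log2FC of -1.88 (adjusted p = 0.0114 by DESeq2), and -1.18 without DMSO replicate 1. Nt5c3b, a nucleotidase, had 27.0 and 6.88 FPKM with DMSO and 2.76 and 2.38 FPKM with the inhibitor, with a log2FC of -2.93 (adjusted p = 0.00952 by DESeq2), and -1.41 without DMSO replicate 1. Nudt5, which hydrolyses ADP-ribose, had 16.4 and 41.7 FPKM with DMSO and 90.1 and 81.2 FPKM with the inhibitor, with a log2FC of 1.47 (adjusted p = 0.0434 by DESeq2), and 1.04 without DMSO replicate 1. Ada, which deaminates adenosine, had 1.43 and 2.90 FPKM with DMSO and 8.15 and 9.90 FPKM with the inhibitor, with a log2FC of 1.95 (adjusted p = 0.0618 by DESeq2), and 1.64 without DMSO replicate 1. In edgeR the adjusted p was 0.333 for each of Nt5c, Ak6, Nt5c3b, Nudt5 and Ada. DESeq2 left Nt5c without an adjusted p.

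**Figure D4:**
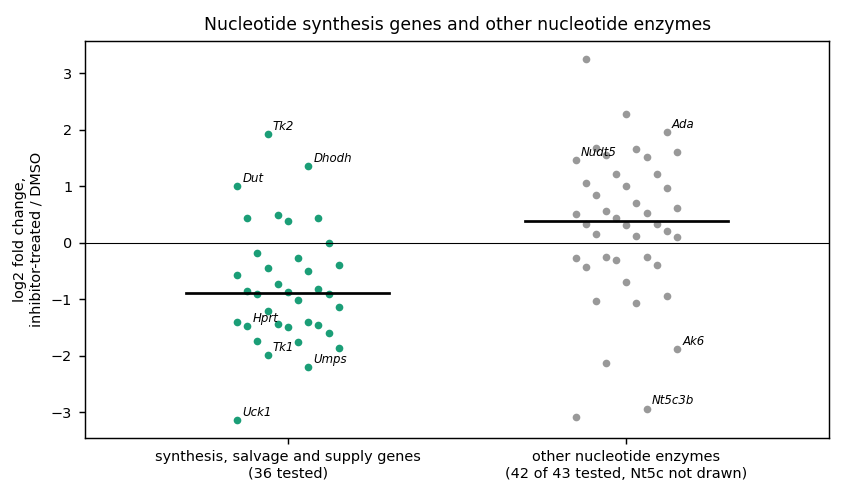
log2FC by edgeR of the 36 tested genes of synthesis, salvage and supply and of 42 other nucleotide enzymes, 1 point a gene spread sideways for legibility, with a line at each median (-0.88 and 0.39). Nt5c, at 0 in both treated libraries, is not drawn. Most points on the left lie below 0 and most on the right above it, and both columns span more than 4 log2 units.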

How the data were processed

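The authors aligned read pairs to mm10 with STAR, kept uniquely mapped reads and estimated gene levels with RSEM 1.3.3. The expected count deposited by the authors is RSEM's estimate of fragments per gene, not normalized. FPKM values, also from the authors, divide it by effective transcript length and by the fragments of the library, and the TPM of the authors, summing to 1000000, served only to check units. Deposited effective lengths entered 1 alternative.

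The expected counts were made whole by rounding, low genes were removed with filterByExpr (minimum count 10, total 15), libraries were scaled with TMM factors from 0.873 to 1.06, and groups were compared with the quasi-likelihood test of edgeR 4.0.16 (R 4.3.3) with robust estimates, adjusted by Benjamini-Hochberg over 13549 genes. Standard errors were derived from its F statistic. DESeq2 1.42.0 and limma 3.58.1 gave alternatives, and an adjusted p that DESeq2 left empty stayed empty. The main test was edgeR rather than the DESeq2 of the study. The edgeR, DESeq2 and limma tests were run on simulated counts with large changes, less spread than these libraries and no outlying library. The DESeq2 fit with lengths was not among them, so the simulation does not cover the calls reported here. Limits drawn from counts cover counting error only.

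The genes, lists and naming rule were chosen with earlier results of these data known. The rule gave full statistics to genes with an unadjusted edgeR p under 0.05 or a DESeq2 call and to the highest gene of each class, and named the other enzymes with a DESeq2 call or the 2 smallest p-values in each direction. Salvage enzymes filed with the other enzymes were named outside this rule. Lists were written from general knowledge. Positions and promoters are from RefSeq for GRCm38.p6 (37 genes with a position, 34 with a promoter window). The main test did not pair the libraries by replicate number. The correlation over genes of same-numbered deviations from the group means was -0.03. With 2 libraries in each group, this value cannot show whether they were made in pairs.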

Additional observations from a re-analysis of the deposited data

How the results depend on the processing

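Of the 36 tested genes, 30 kept their direction under all alternatives, 24 of them lower. The number with an adjusted p under 0.05, 0 in edgeR, was 8 in each DESeq2 fit (Ppat, Paics, Impdh1, Impdh2, Umps, Hprt, Tk1 and Nme1), 7 in edgeR without the filter (the same without Hprt), 0 with limma, and from 0 to 26 when single libraries were dropped, the 26 being without DMSO replicate 2. The adjusted p of these 8 ranged from 0.0003 to 0.992 over all alternatives. Without the filter, edgeR called 479 lower and 165 higher of all 18208 genes. With the replicate block 0 of the 36 passed, against 32 lower and 12 higher of all 13549 tested genes. In that fit 13 of the 36 were lower at an unadjusted p under 0.05. The number lower at an unadjusted p under 0.05 ranged from 1 (without inhibitor replicate 1) to 25 (without DMSO replicate 2) with a library left out, against 15, and was 11 without DMSO replicate 1 and 5 without inhibitor replicate 2. The number higher was 1, and 2 with DESeq2 with lengths, with both limma fits on log2(FPKM + 1), with library totals, without the filter and with at least 10 counts in every library, 0 with the replicate block, and from 0 to 4 with a library left out. With a library left out, 1 group holds a single library and non-overlap is easier to meet by design. Counts of genes without overlap were therefore not compared between those settings. Shares of all tested genes at an unadjusted p under 0.05 were computed only for the main fit (10.1% lower and 4.72% higher). The counts from the other fits therefore have no such share beside them. The cause of the changes in the counts at a p threshold was not tested.

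With a library left out, the median log2FC ranged from -1.33 to -0.50 for purine, -1.86 to -0.50 for pyrimidine, -1.90 to -0.61 for salvage, -1.24 to 0.058 for deoxynucleotide genes and -1.25 to -0.47 for all 36, and the end nearest 0 was each time that without DMSO replicate 1. The pyrimidine median was -0.73 with limma on log2(FPKM + 1), with or without the filter, and the salvage median was -0.75 with at least 10 counts in every library, where 4 genes were left. Library totals moved the median of all genes to 0.17 and filtered limma on log2(FPKM + 1) to 0.13, and the median of the nucleotide genes to -0.71 and -0.67. Counted as salvage, Dck, Tk1 and Tk2 moved the salvage median to -1.13 and the deoxynucleotide median to -0.81.

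Single genes changed sign as follows. Prps2 was at -0.67 with the replicate block and from -2.99 to 1.42 with a library left out. Adk was at 0.11, 0.12 and 0.11 in the limma fits, 0.13 with library totals, 0.021 with at least 10 counts and from -0.26 to 0.25 with a library left out. Uck2 was at 0.01 in the 3 limma fits (0.0101, 0.0102 and 0.0101), 0.00519 with library totals and from -0.57 to 0.38 with a library left out. With a library left out Rrm1 ranged from -1.80 to 0.16, Tyms from -1.33 to 0.042 and Guk1 from -0.77 to 0.52. Genes with few fragments, such as Uck1, Tk2 and Prps2, are limited by depth.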
